A study of Mus musculus with 8 samples.

Results

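Immunoglobulin variable (V) gene segments were read in the distal colon of mice from 2 kinds of housing. They were taken as every gene of the deposited count table whose symbol begins with Ighv, Igkv or Iglv, which gave 143 of the 16130 genes listed: 70 heavy-chain, 70 kappa and 3 lambda segments. The 4 EE samples came from mice held in environmentally enriched housing and the 4 NE samples from mice in conventional, non-enriched housing, for 4 months in each case. All 8 samples, controls included, came from Tcf4Het/+ ApcMin/+ animals. ApcMin encodes a shortened form of APC, a protein that holds Wnt signalling down in the gut, and mice with it develop intestinal adenomas. The labels do not describe the Tcf4Het allele further and do not say whether each sample was a separate animal. Total RNA of whole tissue was depleted of ribosomal RNA and read as single ends of 50 bases.

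A B cell makes its antibody by joining V to joining (J) segments, with a diversity segment between them in the heavy chain, so that a clone and its plasma cell descendants transcribe a single productive heavy-chain V segment and, as a rule, a single kappa or lambda V segment. Mouse light chains are mostly kappa, and the lambda locus of laboratory strains holds few V segments. The colon lamina propria is rich in plasma cells, most of them making IgA, and their immunoglobulin transcripts are very abundant. In bulk RNA the reads of a V segment therefore add up over all clones that use it, and a high value can come from many clones or from a few large ones.

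All 70 heavy segments lie on chromosome 12, between 113588267 and 116000461 on the minus strand (GRCm38, which is mm10). The 70 kappa segments lie on chromosome 6, between 67555497 and 70704177, 43 of them on the minus and 27 on the plus strand. The 3 lambda segments lie on chromosome 16, between 19085017 and 19260859 on the minus strand. GENCODE M21 annotates 113 heavy, 100 kappa and 3 lambda V genes. Of the segments counted, 142 are annotated as V genes and 1, Igkv11-106, as a V pseudogene. The largest segment by total was Iglv1 with 4630 counts over the 8 libraries, the median segment had 155 and the smallest 12.

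The segments are related in sequence, which bears on how far single segments can be told apart with 50-base reads. Over all 143, a median of 76.7% of a segment's 50-base stretches occurred in no other V segment, the lowest value was 25.7%, and 16 segments had less than 50% of stretches of their own. The 291 bases at the 3′ end of the coding sequence, which lie within the V exon, are printed for 2 pairs of near copies whose members behaved differently in these libraries, with the bases that differ between the members of a pair in capitals. Iglv1 is at chr16:19085017-19085307 and Iglv2 at chr16:19260401-19260691, both on the minus strand. Igkv1-110 is at chr6:68270977-68271267 and Igkv1-117 at chr6:68121537-68121827, both on the plus strand (GRCm38, sequences from GENCODE M21 transcripts).
Iglv1: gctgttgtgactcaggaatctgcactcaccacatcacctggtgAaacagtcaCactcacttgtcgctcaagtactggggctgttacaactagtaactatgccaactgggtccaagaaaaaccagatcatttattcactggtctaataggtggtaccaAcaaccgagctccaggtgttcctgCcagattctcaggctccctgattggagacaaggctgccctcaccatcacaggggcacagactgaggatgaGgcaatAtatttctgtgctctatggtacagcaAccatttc
Iglv2: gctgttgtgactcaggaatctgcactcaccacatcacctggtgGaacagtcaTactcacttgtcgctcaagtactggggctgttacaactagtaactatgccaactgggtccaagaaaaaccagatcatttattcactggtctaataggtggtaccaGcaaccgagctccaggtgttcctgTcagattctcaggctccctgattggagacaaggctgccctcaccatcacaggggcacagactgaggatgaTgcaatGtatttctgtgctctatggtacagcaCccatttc
Igkv1-110: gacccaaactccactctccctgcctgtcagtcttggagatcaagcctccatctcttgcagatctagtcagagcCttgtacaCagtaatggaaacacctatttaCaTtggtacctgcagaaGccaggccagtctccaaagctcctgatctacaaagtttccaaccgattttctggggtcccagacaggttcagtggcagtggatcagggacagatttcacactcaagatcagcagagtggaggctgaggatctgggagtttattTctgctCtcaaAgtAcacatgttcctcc
Igkv1-117: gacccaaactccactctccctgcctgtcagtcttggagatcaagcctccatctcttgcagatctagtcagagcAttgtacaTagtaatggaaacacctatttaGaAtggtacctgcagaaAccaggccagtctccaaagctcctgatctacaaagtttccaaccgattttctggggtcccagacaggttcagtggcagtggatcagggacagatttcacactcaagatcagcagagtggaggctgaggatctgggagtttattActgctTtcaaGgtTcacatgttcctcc
The lambda pair was identical at 284 of 291 bases (97.6%), with a longest identical stretch of 104 bases and 75 shared 50-base stretches. The kappa pair was identical at 282 of 291 bases (96.9%), with a longest identical stretch of 142 bases and 117 shared stretches. Reads from those stretches fit both members, and how the authors' counting treated them is not stated in the sources used, and the values of these 4 segments are uncertain to that extent.

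The 2 heavy segments that were the highest of their class in at least 1 library are shown with the codons at the end of the V exon for tyrosine, tyrosine or phenylalanine, and cysteine in capitals. This is the conserved end of a V segment, after which the joined sequence begins to differ from clone to clone. Ighv1-81 is at chr12:115920279-115920569 and Ighv4-1 at chr12:113948282-113948572, both on the minus strand.
Ighv1-81: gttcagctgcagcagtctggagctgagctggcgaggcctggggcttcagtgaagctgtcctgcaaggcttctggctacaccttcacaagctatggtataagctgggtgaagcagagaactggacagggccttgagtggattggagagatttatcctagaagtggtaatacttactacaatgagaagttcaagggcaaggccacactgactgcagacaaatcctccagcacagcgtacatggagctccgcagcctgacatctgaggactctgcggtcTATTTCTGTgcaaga
Ighv4-1: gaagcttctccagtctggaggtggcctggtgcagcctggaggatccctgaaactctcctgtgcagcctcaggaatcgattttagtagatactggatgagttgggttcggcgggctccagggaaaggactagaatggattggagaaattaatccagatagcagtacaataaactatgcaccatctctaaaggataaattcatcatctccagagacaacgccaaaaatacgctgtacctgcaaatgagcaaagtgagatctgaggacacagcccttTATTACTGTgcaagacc
Such a codon triplet lay within the last 40 bases of 139 of the 142 segments that have a coding sequence. Ighv1-81 had 88.4% of its 50-base stretches to itself, and Ighv4-1 had 70.1%, sharing 109 stretches with Ighv4-2.

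Library totals ran between 4735764 and 6266902 counts in EE and between 6120185 and 10586851 in NE. The V segments received 1895, 4026, 5805 and 565 counts in EE 1 to 4, against 6841, 7293, 6799 and 7481 in NE 1 to 4 (the numbers are those of the sample titles). EE 4 stood apart, with under 600 V counts in a library of 6070240, and the main values are given with and without it. Levels are CPM (read counts relative to library size) after scaling libraries by the trimmed mean of M values, and shares are percent of V counts of a class within a library, which scaling does not touch. Intervals of shares are 95% Wilson intervals and cover counting error only.

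V segment reads together stood lower in EE than in NE on average, but the groups overlapped. Their summed level was 402, 769, 875 and 89.4 CPM in EE 1 to 4, against 1078, 1043, 637 and 1237.5 CPM in NE 1 to 4. The mean was 534 ± 359 CPM in EE and 999 ± 256 CPM in NE (SD, n = 4 each), a log2 ratio of -0.90. NE 3 lay below EE 2 and EE 3. Without EE 4 the log2 ratio was -0.55, and over all single libraries left out it ran between -1.25 (without EE 3) and -0.55.

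Heavy and kappa segments followed nearly the same order of libraries. Heavy segments summed to 153, 301, 352 and 32.0 CPM in EE 1 to 4, against 433, 408, 233 and 470 CPM in NE 1 to 4. Kappa segments summed to 215, 393, 449.5 and 51.1 CPM in EE, against 457, 475, 321 and 668 CPM in NE. In both classes EE 4 was the lowest of the 8 libraries and NE 4 the highest, and NE 3 was below EE 2 and EE 3, so the groups overlapped. In bulk tissue, fewer antibody-secreting cells and less RNA per cell cannot be told apart.

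The balance of heavy to light chain did not separate the groups. Heavy segments took 38.3 ± 1.92% of V counts in EE and 38.5 ± 1.54% in NE (SD, n = 4 each), with single libraries between 35.8% and 40.2%. Kappa V reads kept a narrow ratio to their constant region. Kappa V counts were between 58.7 and 68.3 per 100 counts of Igkc, the kappa constant gene, in all 8 libraries. Counts of all V segments were 52.5 ± 8.19 per 100 counts of Igha, the IgA heavy constant gene, in EE and 51.5 ± 5.05 in NE. Igha itself held between 93.3% and 96.3% of the heavy constant counts in every library, so IgA was the main class throughout.

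**Figure D1:**
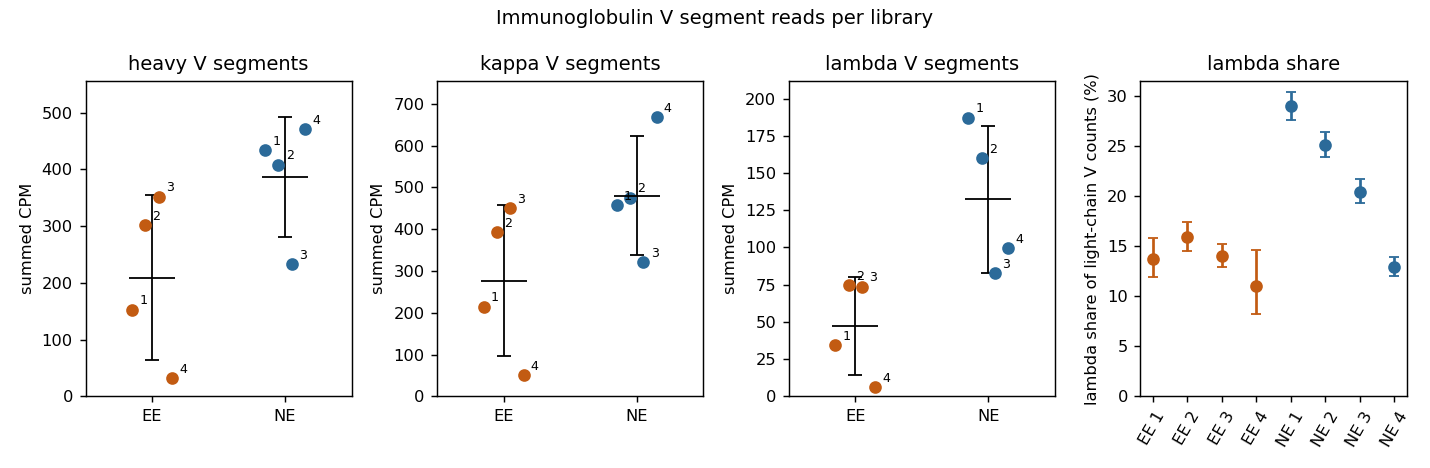
Summed CPM of heavy, kappa and lambda V segments per library (points, numbered by replicate; bar and whiskers, mean and SD, n = 4) and, at the right, the lambda share of light-chain V counts in percent with 95% Wilson intervals. EE 4 is the lowest library in all 3 sums, and the 4 EE lambda sums lie below the 4 NE sums.

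Lambda had the lowest ratio of EE to NE of the 3 classes, 0.357 against 0.542 for heavy and 0.577 for kappa segments. Without EE 4 the ratios were 0.460, 0.695 and 0.734 for lambda, heavy and kappa segments in that order. Lambda segments summed to 34.3, 74.5, 73.7 and 6.33 CPM in EE 1 to 4, against 187, 160, 82.7 and 99.4 CPM in NE 1 to 4. Every EE library was below every NE library, with means of 47.2 ± 33.1 CPM in EE and 132 ± 49.3 CPM in NE (SD, n = 4 each). The gap between the groups was small, since EE 2 at 74.5 CPM was close to NE 3 at 82.7 CPM.

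As a share of light-chain V counts, which does not depend on how much immunoglobulin RNA a library held, lambda was 13.8% (11.9 to 15.9) in EE 1, 15.9% (14.5 to 17.4) in EE 2, 14.1% (13.0 to 15.3) in EE 3 and 11.02% (8.20 to 14.7) in EE 4. It was 29.0% (27.7 to 30.4) in NE 1, 25.2% (23.9 to 26.5) in NE 2, 20.5% (19.3 to 21.7) in NE 3 and 12.96% (12.02 to 13.96) in NE 4. The 4 EE libraries lay close together, 3 NE libraries lay above all of them, and NE 4 lay among them. The mean was 13.7 ± 2.02% in EE and 21.9 ± 6.91% in NE, a difference of -8.21 percentage points. With single libraries left out it ran between -11.2 points (without NE 4) and -5.84 points (without NE 1), and it was -7.31 points without EE 4.

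Nearly all of the lambda signal was Iglv1, the V segment used in most lambda chains of laboratory mice. Iglv1 had 27.97, 71.2, 65.7 and 5.85 CPM in EE 1 to 4, against 184, 152, 79.6 and 95.1 CPM in NE 1 to 4, with every EE value below every NE value. It made up 81.5% to 95.6% of lambda V counts in EE and 94.8% to 98.3% in NE. Its log2 fold change was -1.58 (SE 0.57), which did not pass the adjusted test (edgeR quasi-likelihood test, adjusted p = 0.520).

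Iglv2, its near copy, which is mostly joined to the Iglc2 constant gene, did not share that pattern. It had 5.51, 1.91, 6.33 and 0.316 CPM in EE 1 to 4, against 1.58, 5.58, 1.499 and 1.82 CPM in NE 1 to 4, so the groups overlapped fully (log2 fold change 0.43, SE 0.71, edgeR adjusted p = 0.824). Iglv3, the third lambda segment, which has no 50-base stretch in common with another V segment, was at 0.848, 1.34, 1.66 and 0.158 CPM in EE, against 1.58, 2.72, 1.59 and 2.48 CPM in NE, and was too low to be tested. Iglc2, the 1 lambda constant gene analysed here, averaged 13.3 ± 11.6 CPM in EE and 15.9 ± 2.98 CPM in NE. Lambda V counts per 100 Iglc2 counts were 623, 406, 272 and 286 in EE 1 to 4, against 1015, 1096, 669 and 541 in NE 1 to 4. The other lambda constant genes were not analysed here, so this ratio sets all lambda V counts against Iglc2 alone.

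Among heavy segments, those of the Ighv1 family, long known as J558 and the largest heavy family of the mouse, took most counts. Its 34 listed segments held 56.4 ± 1.25% of heavy V counts in EE and 52.1 ± 6.96% in NE (SD, n = 4 each), and NE 4, at 62.0%, was the highest library of all. Ighv5, with 6 segments, held 11.2 ± 4.62% in EE and 12.1 ± 3.67% in NE. The 4 segments of Ighv3 summed to 9.32, 12.8, 20.1 and 1.58 CPM in EE 1 to 4, against 24.1, 20.6, 21.9 and 37.4 CPM in NE 1 to 4, without overlap. Among families of several segments the same held only for Igkv9, with 1.70, 2.10, 3.47 and 0.791 CPM in EE 1 to 4, against 4.88, 4.58, 3.65 and 21.7 CPM in NE 1 to 4. Both were picked out from all families, and 2.19% of all genes in the table also had every EE library below every NE library. Both margins were small, 20.1 against 20.6 CPM for Ighv3 and 3.47 against 3.65 CPM for Igkv9. Most Igkv9 counts were those of Igkv9-120, described below. As a share of heavy counts, Ighv3 did overlap, at 5.25 ± 0.823% in EE and 6.99 ± 2.04% in NE. The Igkv9 share of kappa counts overlapped too, at 0.911 ± 0.440% in EE and 1.60 ± 1.10% in NE.

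Ighv1-81 was the most used heavy segment overall. It was first in all 4 EE libraries and in NE 3 and NE 4, and the only heavy segment among the 10 highest of all 8 libraries. Its share of heavy V counts was 13.1% (10.8 to 15.7), 14.3% (12.6 to 16.1), 19.4% (17.9 to 21.1) and 9.41% (6.10 to 14.2) in EE 1 to 4. In NE 1 to 4 it was 12.8% (11.6 to 14.1), 7.78% (6.85 to 8.82), 9.92% (8.81 to 11.2) and 9.67% (8.64 to 10.8). EE 3 stood above all others beyond its counting error. In level, Ighv1-81 had 19.9, 43.0, 68.5 and 3.01 CPM in EE 1 to 4, against 55.6, 31.8, 23.1 and 45.5 CPM in NE 1 to 4. The groups overlapped (log2 fold change -0.20, SE 0.64, edgeR adjusted p = 0.910), and the sign turned without EE 4, to 0.20, and without NE 1, to 0.02. Without EE 3 it was -0.84.

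Ighv4-1, the 1 listed member of its family, was first in NE 1 and NE 2. It had 14.8, 21.4, 3.02 and 0 CPM in EE 1 to 4, against 58.6, 44.6, 22.3 and 12.2 CPM in NE 1 to 4, and NE 4 lay within the EE range. EE 4 had 0 of 202 heavy counts for it. This allows a share of up to 1.49% with 3 counts as the upper limit of 0, and up to 1.87% by the Wilson interval. In EE 3 it was 20 of 2335 heavy counts, or 0.857%, against 13.5% (12.3 to 14.9) in NE 1 (log2 fold change -1.85, SE 0.84, edgeR adjusted p = 0.520). The fold change was -2.62 without EE 2, -1.42 without EE 4 and -3.48 with limma-voom.

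The next heavy segments by mean share were Ighv1-26, Ighv5-17, Ighv1-9 and Ighv3-6. Ighv5-17 had 1.27, 9.55, 11.9 and 1.74 CPM in EE 1 to 4, against 20.8, 20.5, 14.9 and 18.4 CPM in NE 1 to 4, without overlap. It was also the steadiest of them in NE, at 18.6 ± 2.71 CPM. Ighv1-26 had 6.57, 11.8, 9.05 and 0.949 CPM in EE, against 20.6, 22.0, 10.96 and 29.8 CPM in NE, where EE 2 and NE 3 crossed. Ighv3-6 had 6.78, 9.17, 12.4 and 1.27 CPM in EE, against 6.93, 12.02, 9.27 and 27.5 CPM in NE.

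Ighv1-9 was high in a single library. It had 1.48, 8.60, 13.4 and 2.69 CPM in EE 1 to 4, against 4.10, 7.15, 8.24 and 36.1 CPM in NE 1 to 4. NE 4 thus held 218 of its 540 counts, and without that library its log2 fold change of -1.05 (SE 0.75) became 0.02. Ighv1-56 was an extreme case, with 21 of its 23 counts in NE 4 and none in 5 libraries.

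The smallest edgeR p among V segments belonged to Ighv1-19, with 1.69, 5.73, 2.71 and 0.791 CPM in EE 1 to 4, against 10.7, 17.5, 4.59 and 13.1 CPM in NE 1 to 4. Only EE 2 and NE 3 crossed (log2 fold change -2.06, SE 0.55, edgeR adjusted p = 0.520; -2.69 without EE 2). Ighv1-39 came next, with 2.12, 2.29, 4.22 and 2.53 CPM in EE, against 16.4, 20.2, 2.72 and 6.95 CPM in NE (log2 fold change -2.01, SE 0.57). NE 1 and NE 2 were high, and NE 3 lay within the EE range.

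Kappa use was spread over more leading segments, and the first segment differed between libraries. Igkv8-27 led in EE 1, Igkv1-110 in EE 2, EE 3 and EE 4, Igkv8-30 in NE 1, Igkv6-15 in NE 2, and Igkv10-96 in NE 3 and NE 4. Igkv1-110, Igkv1-117 and Igkv10-96 were among the 10 highest kappa segments of all 8 libraries. The Igkv1 family held 20.8 ± 4.49% of kappa counts in EE and 17.2 ± 2.80% in NE, and the Igkv8 family 20.9 ± 5.96% in EE and 14.4 ± 4.57% in NE (SD, n = 4 each).

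The highest share that any heavy or kappa segment reached in a library was that of Igkv8-27 in EE 1. There it took 249 of 1013 kappa counts, or 24.6% (22.0 to 27.3), against 1.26%, 1.71% and 2.48% in EE 2 to 4 and between 3.18% and 4.24% in NE. Its level was 52.8, 4.97, 7.69 and 1.27 CPM in EE 1 to 4, against 19.4, 18.6, 10.2 and 27.0 CPM in NE 1 to 4. EE 1 was thus above every NE library and the other EE libraries below every NE library. The fitted log2 fold change of -0.20 (SE 0.82) averaged over these, and it was -1.999 without EE 1.

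Igkv1-110 and Igkv1-117 differ at 9 of the 291 bases printed and did not share a pattern. Igkv1-110 had 23.3, 38.4, 81.7 and 4.59 CPM in EE 1 to 4, against 26.9, 27.6, 28.7 and 34.4 CPM in NE 1 to 4 (log2 fold change 0.34, SE 0.58, edgeR adjusted p = 0.830). As a share of kappa counts it was 10.9%, 9.76%, 18.2% and 8.98% in EE, against 5.89%, 5.81%, 8.93% and 5.15% in NE, so every EE library was above every NE library. The margin was within counting error, since the interval of EE 4 was 6.32% to 12.6%. Igkv1-117 had 21.2, 15.7, 20.5 and 2.69 CPM in EE, against 58.9, 37.8, 17.0 and 47.0 CPM in NE (log2 fold change -1.42, SE 0.52, edgeR adjusted p = 0.520). NE 3 was its exception, below EE 1 and EE 3.

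Igkv10-96 had 9.96, 20.1, 22.0 and 2.53 CPM in EE 1 to 4, against 35.8, 21.3, 31.4 and 51.8 CPM in NE 1 to 4, and EE 3 and NE 2 crossed by a small margin. Igkv8-30 overlapped widely, at 5.30, 24.8, 43.0 and 3.32 CPM in EE, against 59.1, 27.5, 7.40 and 24.98 CPM in NE (log2 fold change -0.61, SE 0.75, and -1.42 without EE 3). Igkv6-15 had 5.72, 20.1, 12.8 and 3.96 CPM in EE, against 10.7, 43.5, 14.3 and 29.8 CPM in NE. NE 2 was the library in which it led, with 9.15% (8.22 to 10.2) of kappa counts.

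The largest fold changes among kappa segments belonged to segments of lower level, and 1 library often set them. Igkv4-53 had 2.33, 1.72, 0.905 and 0.791 CPM in EE 1 to 4, against 7.56, 0.429, 7.68 and 24.8 CPM in NE 1 to 4 (log2 fold change -2.84, SE 0.88, edgeR adjusted p = 0.520). Igkv9-120 had 0.212, 1.34, 2.56 and 0.633 CPM in EE, against 4.41, 3.58, 3.09 and 17.5 CPM in NE, without overlap (log2 fold change -2.50, SE 0.73, edgeR adjusted p = 0.520). NE 2 lay below all EE libraries for Igkv4-53, and NE 4 was far above the others for both. Without NE 4 the log2 fold changes were -1.90 for Igkv4-53 and -1.56 for Igkv9-120, and for Igkv9-120 it was -3.22 without EE 3. Igkv4-72 had 2.33, 4.20, 5.88 and 0.158 CPM in EE, against 3.15, 35.9, 2.997 and 17.9 CPM in NE, with NE 2 and NE 4 high (log2 fold change -2.23, SE 0.90, and -1.31 without NE 2).

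In the other direction, Igkv8-28 had 0, 20.4, 4.83 and 0 CPM in EE 1 to 4, against 0.315, 0.143, 1.97 and 2.98 CPM in NE 1 to 4. EE 2 held 107 of its 181 counts, and the other EE libraries spanned the NE range (log2 fold change 2.19, SE 1.27, edgeR adjusted p = 0.554). Without EE 2 the fold change was 0.32. Igkv14-126 and Igkv4-63 also had positive log2 fold changes, of 0.67 (SE 1.16) and 0.80 (SE 0.90), with EE 3 and EE 2 as their high libraries, and both turned negative without that library.

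**Figure D2:**
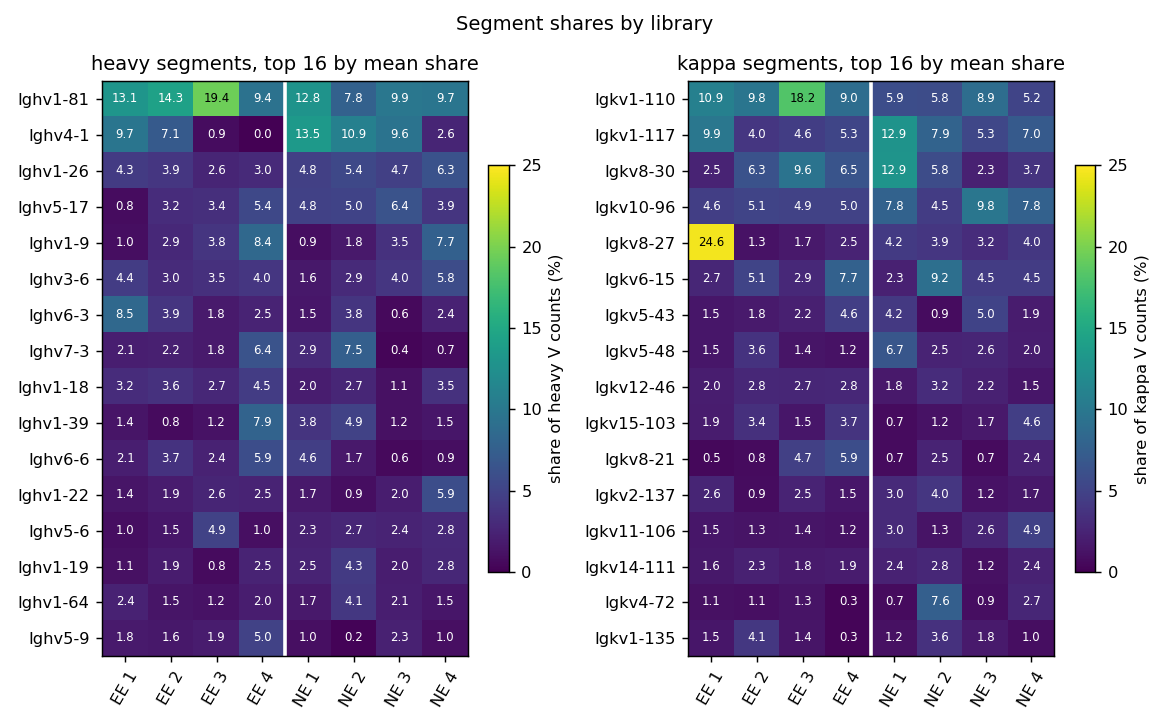
Share of heavy (left) and kappa (right) V counts, in percent, held by the 16 segments with the highest mean share, 1 column per library, with EE left of NE; the colour scale runs to 25%. Ighv1-81 is high throughout, Ighv4-1 ranges between 0% and 13.5%, and Igkv8-27 in EE 1 is the single brightest cell.

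Diversity was described by the share of the 10 highest segments of a library and by the effective number of segments, the inverse of Simpson's index, which is the number of equally used segments that would give the same concentration. The 10 highest segments took 51.5%, 38.2%, 43.0% and 38.2% of V counts in EE 1 to 4, against 51.1%, 43.4%, 40.6% and 35.0% in NE 1 to 4. The means were 42.7 ± 6.24% in EE and 42.5 ± 6.69% in NE (SD, n = 4 each), a difference far smaller than the spread in each group. By class, the 10 highest heavy segments took 57.1 ± 6.02% in EE and 55.1 ± 2.57% in NE, and the 10 highest kappa segments 56.9 ± 6.59% in EE and 54.4 ± 6.48% in NE.

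The effective number of V segments was 25.4, 40.5, 32.9 and 46.6 in EE 1 to 4, against 20.8, 27.4, 32.8 and 47.0 in NE 1 to 4. Both groups held a concentrated and an even library, and the means of 36.4 ± 9.21 in EE and 32.0 ± 11.1 in NE differed by less than 1 SD. The difference of 4.37 ran between 0.65 (without NE 1) and 9.37 (without NE 4) with single libraries left out, and was 0.94 without EE 4. The most concentrated library, NE 1, had 17.1% of its V counts on Iglv1 alone. For kappa alone the lowest value was 10.9 in EE 1, where Igkv8-27 led, and the means were 20.7 ± 8.06 in EE and 24.5 ± 5.27 in NE. For heavy segments they were 20.6 ± 3.64 in EE and 23.0 ± 3.02 in NE.

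The number of segments seen depended on depth. At least 1 count was found for 116, 135, 135 and 102 segments in EE 1 to 4, against 134, 136, 139 and 138 in NE 1 to 4. When each library was thinned to 565 V counts, the total of EE 4, the expected numbers were 92.0, 103, 103 and 102 in EE, against 92.1, 93.4, 104 and 101 in NE. The thinned means were 100.1 ± 5.48 in EE and 97.7 ± 5.84 in NE, and the ranges overlapped. EE 1 and NE 1, the libraries with the fewest segments at equal depth, were also those with the highest share on their 10 top segments.

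**Figure D3:**
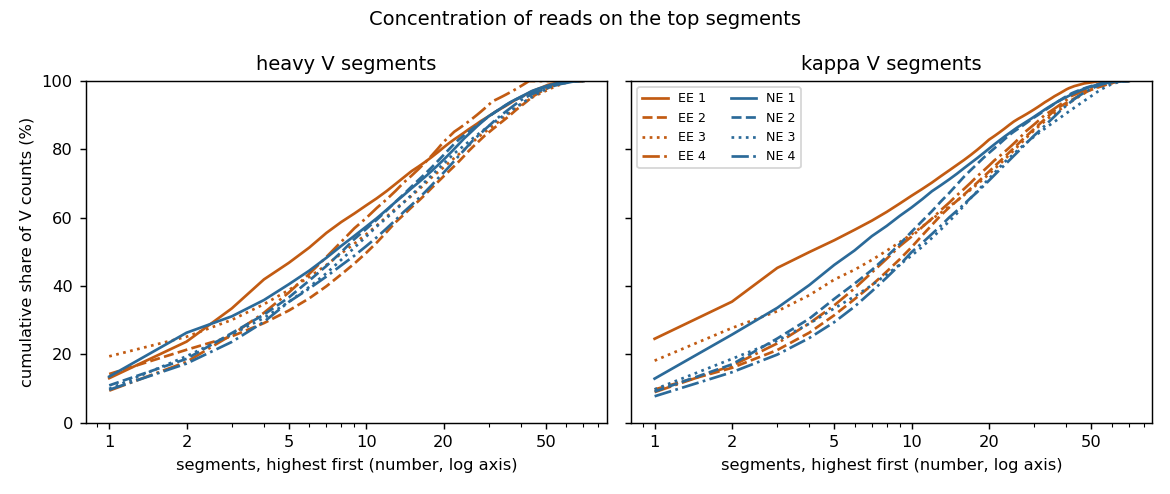
Cumulative share of heavy (left) and kappa (right) V counts, in percent, over segments ranked from the highest down in each library (log axis; EE orange, NE blue, line style by replicate). At 10 segments the heavy curves lie between 49.7% and 63.6% and the kappa curves between 48.9% and 66.4%. Among the kappa curves EE 1 starts highest at 24.6% and NE 4 lowest at 7.76%.

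Among the listed segments, libraries used largely the same ones in different proportions. The deposited table lists no gene with under 12 counts in all, so rare segments are missing from it, which can raise this overlap. A segment could also enter it on its NE counts alone, which bears on the numbers below. Of the 70 heavy segments 39 had at least 1 count in all 4 EE libraries and 60 in all 4 NE libraries, and of the 70 kappa segments 45 in all 4 EE and 63 in all 4 NE. EE 4 was at 0 for 27 heavy and 14 kappa segments, at a depth of 202 heavy and 323 kappa counts. EE 1 was at 0 for 11 heavy and 16 kappa segments, the most kappa segments of any library, at 720 heavy and 1013 kappa counts. The 10 highest heavy segments of the 8 libraries made a union of 30 segments, of which 1 was common to all and 12 appeared in a single library. For kappa the union was 29 segments, of which 3 were common to all and 13 appeared in a single library. Across all members, 29 of 143 had over 50% of their counts in 1 library and 14 had at least 60%.

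Overlap in proportions was measured by Morisita's index, which is 0 for no shared segments and near 1 for equal shares, and which allows for counting depth. For heavy segments it averaged 0.729 between EE libraries (6 pairs, 0.583 to 0.840), 0.734 between an EE and an NE library (16 pairs, 0.606 to 0.847) and 0.776 between NE libraries (6 pairs, 0.673 to 0.865). For kappa segments it averaged 0.667 between EE libraries (0.455 to 0.838), 0.712 between an EE and an NE library (0.548 to 0.857) and 0.774 between NE libraries (0.730 to 0.869). The ranges of the 3 kinds of pair overlapped in both classes, and pairs share libraries, so no test was made. The low kappa values within EE all came from EE 1, whose index with EE 2 to 4 was 0.455, 0.526 and 0.526. Without EE 1, the kappa mean between EE and NE libraries was 0.763. The most alike pairs were NE 1 and NE 2 for heavy segments (0.865) and NE 3 and NE 4 for kappa segments (0.869).

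**Figure D4:**
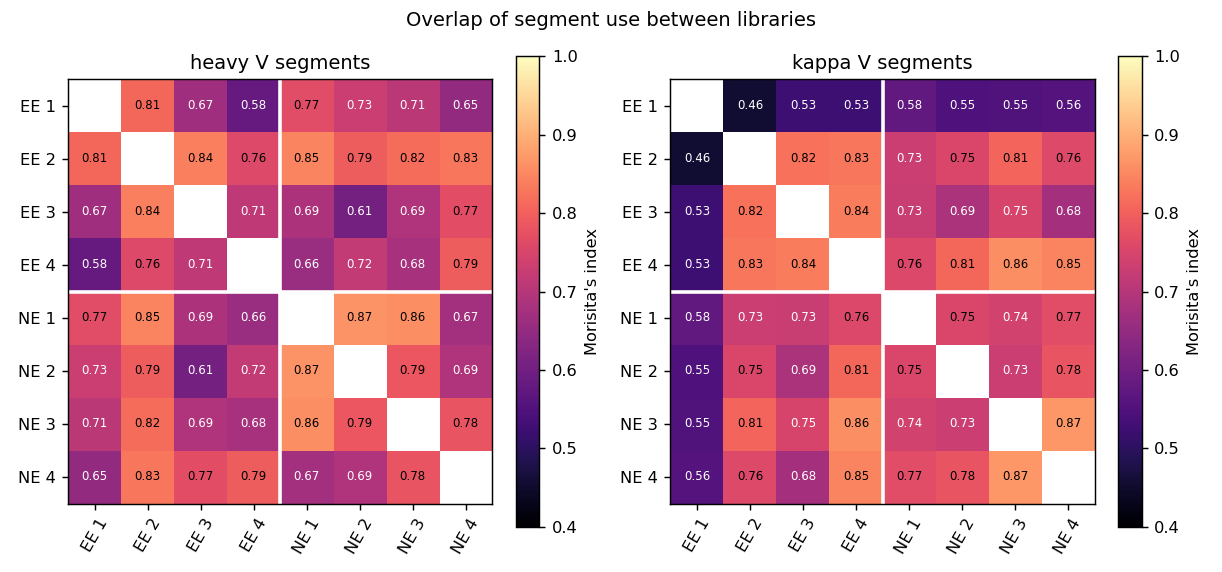
Morisita's index of segment shares for every pair of libraries, heavy segments left and kappa segments right, with EE before NE (white lines separate the groups; the diagonal is empty). EE 1 forms the dark row in the kappa panel, with values between 0.46 and 0.58, and no block of EE or NE stands out in the heavy panel.

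Segment by segment, most V segments stood at lower mean levels in EE. Of all 143, 112 had a lower mean CPM in EE than in NE and 31 a higher one, where 50.0% of the genes in the table were lower. The median log2 ratio of mean CPM was -0.86 over the 143 segments and -0.0004 over all genes. The classes were alike in this, with 54 of 70 heavy segments lower (median -0.90), 56 of 70 kappa segments lower (median -0.83) and 2 of 3 lambda segments lower. EE 4 was the lowest of the 8 libraries, ties included, for 106 of 143 segments. Without it, 97 of 143 were lower in EE and the median was -0.56. Segments share cells, libraries and partly reads, so these counts describe the libraries and are not a test.

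No V segment passed the test. The filter on low counts kept 84 of the 143 segments, and 0 of the 84 had an adjusted p under 0.05 by edgeR's quasi-likelihood test, where 0.0% of the 14311 genes tested did so. The lowest adjusted p of a segment was 0.520, which was also the lowest of all genes. DESeq2 and limma-voom called 0 segments as well. At an unadjusted p under 0.05, 20 of the 84 were lower in EE and 0 higher, where 3.75% of all tested genes were lower and 5.74% higher in EE at that p. Without EE 4, 16 of the 98 segments then tested were lower and 2 higher. The number lower was 34 of 89 without EE 3 and 33 of 143 with no filter. Over all genes, in either direction, 966 of 14549 were under that p without EE 4. The same number was 1093 of 14476 without EE 3 and 1563 of 16130 with no filter. Without EE 4 the log2 fold change was -1.20 for Iglv1, -1.24 for Ighv5-17, -1.16 for Ighv1-26, -1.73 for Ighv1-19, -1.05 for Igkv1-117, -0.99 for Igkv10-96 and 0.73 for Igkv1-110. A segment could pass the filter on its NE counts alone, so the 84 are not a fair sample of all members. Their standard errors were wide, with a median of 0.74 on the log2 scale against 0.19 for all tested genes.

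In 11 of 143 segments all 4 EE libraries were below all 4 NE libraries, and in 0 all were above, where 2.19% of all genes in the table had all EE libraries below and 2.7% all above. Besides Iglv1, Ighv5-17 and Igkv9-120 these were Ighv1-64, Ighv1-74, Ighv6-7, Ighv5-9-1, Ighv7-1, Ighv1-37, Igkv3-5 and Igkv4-79, most of them of low level. In some of them the separation rested on library size or on very few counts. Ighv7-1 had 1 count in EE 4 and 1 in NE 4, and Ighv1-74 had 3 in EE 3 and 3 in NE 1. Igkv4-79 had 3 counts in EE 3 and 5 in NE 3. Ighv1-64 had 3.602, 4.39, 4.22 and 0.633 CPM in EE 1 to 4, against 7.41, 16.6, 4.96 and 7.11 CPM in NE 1 to 4. Ighv1-37 was the 1 heavy segment at 0 in every EE library, with NE values of 2.99, 0.429, 0.187 and 0.496 CPM. Those NE values were 19, 3, 2 and 3 counts, so NE 2 to 4 were at or under the floor of 3 counts. Ighv1-37 was thus listed through its NE counts alone, and EE 1 and EE 4 held only 720 and 202 heavy counts. These 8 were named after their values were seen.

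**Figure D5:**
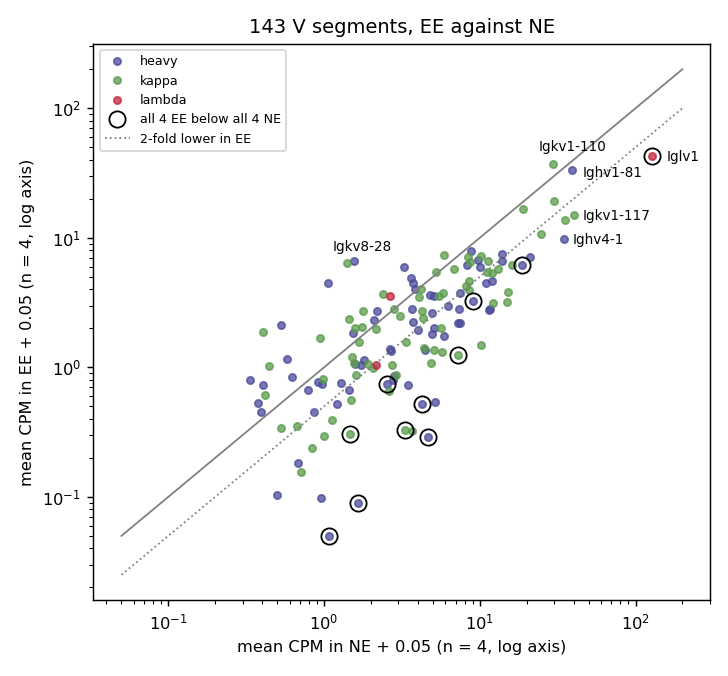
Mean CPM in EE (vertical) against NE (horizontal) for the 143 V segments, both on log axes with 0.05 CPM added, coloured by class; the solid line marks equal means, the dotted line 2-fold lower in EE, and circles the 11 segments with all EE below all NE libraries. Most points, 112 of 143, lie below the solid line, Iglv1 is the circled point of highest level, and Igkv1-110 and Igkv8-28 lie above the line.

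The authors' deposited table gives its own log2 fold change and adjusted p-value (FDR) per gene. Its headers do not name the numerator, but its sign was opposite to the EE minus NE difference in mean CPM in 133 of 143 segments, so a positive value goes with higher NE counts. Among the 143 segments, the authors' deposited table gives 34 an FDR under 0.05 with a positive log2 fold change, where 1.32% of all 16130 genes did. In the authors' deposited table the lowest FDR of a V segment was that of Ighv4-1 (1.47e-10, log2 fold change 1.63), followed by Iglv1 (6.84e-10, log2 fold change 1.69). The authors' deposited table also lists 3 segments with an FDR under 0.05 and a negative log2 fold change, Ighv1-69, Ighv1-54 and Igkv8-28, named here after their values were seen, where 1.07% of all genes in that table did so. Each of those 3 was high in 1 EE library, Ighv1-69 with 16.3 CPM in EE 1, Ighv1-54 with 20.2 CPM in EE 3 and Igkv8-28 with 20.4 CPM in EE 2. Of the 37 segments past that FDR in the authors' deposited table, 27 were among the 84 tested with edgeR, where none passed, and 9 had all EE libraries below all NE libraries.

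Igha, Igkc and Jchain stood in much the same order of libraries as the V segments, and not all other constant region genes did. Igha had 867, 1222.5, 1589.5 and 196 CPM in EE 1 to 4, against 2147, 2085, 1353 and 2105 CPM in NE 1 to 4, and Igkc had 366, 604, 726 and 75.6 CPM in EE, against 763, 806, 514 and 978 CPM in NE. Jchain, which links IgA into dimers, had 513, 1045, 950 and 107 CPM in EE, against 1141, 1081, 614 and 1383 CPM in NE. In all 3 EE 4 was the lowest library and NE 3 the lowest of NE, as in the V sums. Ighm averaged 17.0 ± 10.1 CPM in EE and 27.0 ± 3.15 CPM in NE, and Ighg2b 18.1 ± 8.98 CPM in EE and 22.0 ± 5.74 CPM in NE. Ighg2b had another order, with 23.7 and 23.9 CPM in EE 1 and EE 2, against 18.6 and 16.7 CPM in NE 1 and NE 2. Iglc2 was highest in EE 3, at 27.1 CPM.

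The 7 J segments listed summed to between 3.48 and 31.4 CPM in EE and between 20.9 and 35.4 CPM in NE. Kappa J counts were 5.03, 5.10, 5.23 and 5.88 per 100 kappa V counts in EE 1 to 4, against 4.82, 4.36, 4.50 and 3.91 in NE 1 to 4, with every EE library above every NE library. The margin was small, between 5.03 in EE 1 and 4.82 in NE 1, and counting error was not computed for this ratio. The value of EE 1 rests on 1013 kappa V counts and that of EE 4 on 323.

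Marker lists of the cell types in the tissue also differed between libraries. In the edgeR adjusted test 0 members of any list passed, where 0.0% of all 14311 genes tested did. The 15 plasma cell genes summed to between 1386 and 2427 CPM in EE and between 1967 and 2875 CPM in NE. In EE 4, Sdc1 at 456, Txndc5 at 427 and Xbp1 at 254 CPM made up most of the sum, with Jchain at 107 CPM. Of the 14 tested, 12 had lower fitted values in EE, where 49.7% of all tested genes did. Sdc1 and Prdm1 were higher, with log2 fold changes of 0.16 (SE 0.12) and 0.50 (SE 0.20). For Sdc1 every EE library was above every NE library, but narrowly, with 436.66 CPM in EE 2 against 435.22 CPM in NE 4. For Xbp1 every EE library was below every NE library, with 298 CPM in EE 2 against 304 CPM in NE 3 as the nearest. The same held for Tnfrsf17, described below. Of all genes in the table, 2.7% had all EE libraries above and 2.19% all below. The 12 B cell genes summed to between 9.81 and 64.8 CPM in EE and between 33.0 and 71.1 CPM in NE, with 9 of 10 tested lower. Tnfrsf17, the plasma cell receptor BCMA, and Pax5, the B cell transcription factor, were at 0 in EE 4, where all other genes of both lists had counts. Both were too low to be tested, with 3, 4 and 5 counts for Tnfrsf17 and 4, 4 and 5 for Pax5 in EE 1 to 3. The 8 T cell genes summed to between 12.8 and 27.7 CPM in EE and between 23.6 and 31.6 CPM in NE. The 8 smooth muscle genes summed to between 644 and 4247 CPM in EE and between 3387 and 5471 CPM in NE, lowest in EE 4, and the 10 colon epithelium genes to between 10374 and 19842 CPM in EE and between 17461 and 23817 CPM in NE. EE 4 thus also had little smooth muscle RNA, and the part of tissue make-up in the V segment values was not tested. Of the 12 germinal centre and rearrangement genes, 5 were in the table, summing to between 59.8 and 82.8 CPM in EE and between 57.2 and 73.1 CPM in NE.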

How the data were processed

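Read counts per gene in 8 libraries were the only measurement used. Per the labels' protocols, RNA was made into strand-preserving, ribosomal RNA-depleted libraries. Per the submitters' processing notes, the build was mm10 and the tools named are Novoalign 2.08.01 and DESeq 1.14.0. The annotation, the counting program, the use of strand and the treatment of reads that fit several segments are not stated in the labels or headers. The authors deposited 1 table of raw counts, in which no gene has under 12 counts in all. Beside the counts the authors deposited, per the file headers, their own log2 fold changes and adjusted p-values (FDR).

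Members are all symbols beginning with Ighv, Igkv or Iglv. Members, marker lists and named segments were chosen with earlier results of these data known. Named were the 6 heavy and 6 kappa segments of highest mean share, all lambda segments, the first of each class in any library, the 4 smallest p, the 3 highest and 3 lowest fold changes at 1 CPM or more, segments with at least 90% of counts in 1 library, and constant genes with Jchain. This gave 24 V segments.

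The counts went through edgeR 4.0.16 in R 4.3.3: filterByExpr (14311 genes kept, 59 segments left out), TMM scaling, and the robust quasi-likelihood test of EE over NE with Benjamini-Hochberg adjustment over all tested genes at 0.05. SE is the fold change over the square root of F. CPM used TMM-scaled library sizes, and ratios of mean CPM an offset of 0.1. Shares, Wilson intervals, Simpson and Morisita indices and the exact expectation at equal depth were computed from counts. The upper limit of a count of 0 is 3 counts. Intervals and limits cover counting error only. The labels do not say that samples were separate animals, so p-values measure the spread between these samples, which may be technical. Group totals over members got no p-value. The alternatives tried were DESeq2 1.42.0, limma-voom, other scalings, filters and indices, the replicate number as a block, and each library left out. DESeq2 without EE 4 and the class ratios without EE 4 were added after the data were seen. The test was checked on simulated counts. Sequences and coordinates come from GENCODE M21 (GRCm38). RefSeq's promoter table held 0 of the segments.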

Additional observations from a re-analysis of the deposited data

Results flagged for a closer look

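Of 78 sets of 4 libraries examined, 7 held a library far from the other 3 by Dixon's test. Its nominal rate is about 1 in 20 sets. The sets share libraries and include segments of very low counts, so the 7 cannot be compared with that rate. Ighv1-9 was at 36.06 CPM in NE 4, far above the other NE libraries. Igkv9-120 was at 17.53 CPM in NE 4, and Iglv2 at 5.579 CPM in NE 2. Igkv8-27 was at 52.76 CPM in EE 1, against at most 7.69 CPM in the other EE libraries. Ighv1-56 was at 0.191 CPM in EE 2, a single count, and at 3.474 CPM in NE 4, where nearly all of its counts lay. The number of segments expected at equal depth in EE was lowest in EE 1, at 91.96, the library in which Igkv8-27 was high. The cause of these values was not tested.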

How the results depend on the processing

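No V segment was called under any of the alternatives run. The count over all genes, 0 by edgeR, was 14 with DESeq2, 6 with DESeq2 without EE 4, an alternative chosen after seeing the data, and between 0 and 1 with single libraries left out (1 without EE 2). No V segment was among them, and the lowest adjusted p of a segment by DESeq2 was 0.0773, with 12 segments given none. Whether the replicate numbers pair the samples was not settled. The correlations of same-numbered deviations were 0.254, 0.0101, -0.180 and -0.0374, and only EE 1 was most like its same-numbered NE library. Such values cannot show how the samples were laid out. With the replicate block 0 segments were called. At an unadjusted p under 0.05, 19 of 84 were lower with the block, against 20 of 84 without it. Over all 14311 genes, in either direction, 1405 were under that p with the block and 1358 without it. Limma-voom gave log2 fold changes of -1.36 for Igkv8-27, 0.12 for Igkv8-28, -1.94 for Igkv4-53 and -0.83 for Ighv1-81, against -0.20, 2.19, -2.84 and -0.20 by edgeR, and the replicate block gave -1.02 for Igkv8-27 and 1.19 for Igkv8-28. Of 22 named segments with a fitted fold change, 15 kept their direction in every setting. The log2 fold change of Igkv1-110, 0.34, was -0.28 with limma-voom and -0.0953 with the replicate block, and that of Igkv14-126, 0.67, was -0.23 with limma-voom. With single libraries left out, the log2 fold change ran between -0.84 and 0.20 for Ighv1-81, between -1.68 and 0.0165 for Ighv1-9, between -0.42 and 0.73 for Igkv1-110, between -1.999 and 0.20 for Igkv8-27, between -0.0652 and 1.11 for Iglv2, between -0.45 and 1.28 for Igkv4-63 and between -0.46 and 1.63 for Igkv14-126. The EE minus NE difference in segments detected was 2.42 at equal depth, 0.55 to 5.15 with single libraries left out, -14.75 for at least 1 count and -31.25 for at least 5 counts at each library's own depth, where EE 1 and EE 4 had the fewest V counts. The mean overlap between EE and NE libraries was 0.817 by Jaccard's index and 0.607 by Bray-Curtis for heavy segments, and 0.864 by Jaccard's index for kappa segments. These indices are on other scales than Morisita's. The heavy share difference of -0.21 points ran between -0.85 and 0.64 and the top 10 share difference of 0.18 points between -2.73 and 3.04 with single libraries left out, both within the spread between libraries. Depth limits EE 4, with 565 V counts, and segments near the floor of 3 counts.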

Other observations

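Ratios within the immunoglobulin genes were also read in each library. Heavy V counts per 100 heavy constant counts were between 15.2 and 23.0 in the 8 libraries, and kappa V counts per 100 Igkc counts between 58.7 and 68.3. Counts of all V segments per 100 Jchain counts were 78.2, 73.6, 92.2 and 83.3 in EE 1 to 4, against 94.5, 96.5, 104 and 89.5 in NE 1 to 4. The mean was 81.8 ± 7.95 in EE and 96.0 ± 5.89 in NE (SD, n = 4 each). The groups overlapped, since EE 3 lay above NE 4. Igkv11-106, annotated as a pseudogene, held 503 counts and between 1.24% and 4.86% of kappa V counts in every library.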
